A study of Mus musculus with 48 samples.

Results

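A set of 9 genes of enteric neurons and of transmitter release were described in the colon of offspring mice, with the liver beside it: *Chat*, *Slc18a3*, *Nos1*, *Vip*, *Ret*, *Elavl4*, *Snap25*, *Syt1* and *Uchl1*. All probes whose accession belonged to one of these symbols were taken, which gave 15 probes of 9 genes among 41174 probes and 18434 named genes on the array. *Syt1* had 5 probes, *Chat* and *Elavl4* 2 each and the other genes 1 each. The genes were chosen by their colon ratios in the diet comparisons, so their differences between diets are given as a description, with standard errors and without a p-value for any of them.

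The mice were C57/BL6, aged 12 weeks when tissue was taken, and all were kept on a high-fat background diet that was either sufficient (H) or deficient (L) in selenium and folate. The paper describes diet H as supplemented above guideline levels and diet L as only marginally deficient. A group's first letter is the dam's diet and its second letter that of the weaned pups, so HH mice had the sufficient diet throughout, HL mice the deficient diet only after weaning, LH mice only through the dam, and LL mice throughout. The paper describes the offspring as male, whereas the labels give no sex and no litter. Colon RNA of 6 mice per group and liver RNA of 6 mice per group (5 for HH, where the labels give 2 arrays the same animal) was labelled with Cy3 and hybridised with a Cy5-labelled reference RNA. The series describes this reference as RNA of a whole pregnant mouse with foetus and the paper as pooled intestinal and liver RNA. Each of the 6 colon slides held 1 mouse of each group, replicate numbers follow the order of deposit, and every value below is the log2 ratio of mouse over reference unless another quantity is named.

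The enteric nervous system is the network of neurons and glia inside the gut wall that drives motility, secretion and blood flow. Excitatory motor neurons release acetylcholine, which choline acetyltransferase makes and the vesicular acetylcholine transporter loads into vesicles, while inhibitory motor neurons use nitric oxide and vasoactive intestinal peptide. Release runs through vesicle fusion, in which the calcium sensor synaptotagmin acts on the SNARE complex that holds SNAP-25. In RNA of the whole colon wall, fewer neurons and less RNA per neuron cannot be told apart.

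The promoters of *Vip*, *Elavl4* and *Uchl1* are printed because these were the genes whose colon and liver values did not overlap on any probe. They are the 250 bases before the start of the transcript in RefSeq (GRCm38.p6), for *Elavl4* the most upstream of 4 starts, and capitals mark TGACG, the core of the cyclic AMP response element, or its reverse complement CGTCA, and the TATA box TATAAA. The regions are chr10:5638968-5639217 on the plus strand for *Vip*, chr4:110351912-110352161 on the minus strand for *Elavl4* and chr5:66675871-66676120 on the plus strand for *Uchl1*.
Vip: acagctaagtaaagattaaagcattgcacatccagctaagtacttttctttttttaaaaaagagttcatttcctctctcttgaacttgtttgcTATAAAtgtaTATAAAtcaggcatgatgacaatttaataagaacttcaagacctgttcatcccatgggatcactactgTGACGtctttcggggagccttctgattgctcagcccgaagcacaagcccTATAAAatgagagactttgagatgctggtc
Elavl4: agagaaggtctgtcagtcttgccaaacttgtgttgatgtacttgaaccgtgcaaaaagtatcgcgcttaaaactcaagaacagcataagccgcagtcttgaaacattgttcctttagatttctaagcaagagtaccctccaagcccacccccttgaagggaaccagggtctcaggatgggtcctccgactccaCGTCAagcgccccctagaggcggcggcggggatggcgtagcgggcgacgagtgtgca
Uchl1: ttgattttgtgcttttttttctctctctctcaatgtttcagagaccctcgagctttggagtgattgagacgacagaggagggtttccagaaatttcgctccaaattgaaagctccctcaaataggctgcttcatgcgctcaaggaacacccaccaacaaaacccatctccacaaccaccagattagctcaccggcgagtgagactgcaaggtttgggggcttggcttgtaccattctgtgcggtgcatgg

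Promoters were found in RefSeq for 7 of the 9 genes, 11 starts in all, and not for *Ret* and *Snap25*. TGACG was searched on both strands. It stood in the promoter of 5 of these genes (*Chat*, *Slc18a3*, *Nos1*, *Vip* and *Elavl4*), and 17.8% of the 32851 mouse promoters of the same length held it. In *Vip* it began 79 bases before the start, and in *Slc18a3* 49 bases before it. TATAAA, searched on both strands as well, was found in *Vip* alone among the 7 genes, at 3 places, against 12.4% of all promoters. The full element TGACGTCA, held by 1.55% of promoters, was in none of the 11. *Slc18a3* lies inside the *Chat* gene, an arrangement known as the cholinergic gene locus.

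Of the 15 probes, 10 probes of 7 genes were well above background in Cy3 on at least 12 of the 24 colon arrays. *Nos1*, the neuronal nitric oxide synthase, and *Ret*, the receptor for glial cell line-derived neurotrophic factor, were well above background on 2 of 24 colon arrays each and on 0 liver arrays. Their colon means were 0.11 ± 0.08 (SD, n = 24) for *Nos1* and 0.06 ± 0.06 (SD, n = 24) for *Ret*, and ratios of probes this dim hold little information on the level of either gene. The other unmeasured probes were 1 of *Chat* and 2 of *Syt1*, each on 0 of 24 colon arrays. No probe was saturated. The Cy5 reference spot of *Snap25* was well above background on only 3 of 48 arrays, so its ratio has a dim denominator. For the brightest probe of each other measured gene the reference spot was well above background on 48 of 48. Brightness differs between probes for reasons of design, so levels were compared between tissues and groups and not between genes.

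*Vip*, which encodes vasoactive intestinal peptide, had a colon ratio of 2.89 ± 0.24 (SD, n = 24), from 2.36 to 3.47. In the liver it was -1.33 ± 0.60 (SD, n = 23) and not well above background on 23 of 24 arrays, so that colon exceeded liver at least 16.7-fold. The exception was LL replicate 6, at 1.30, where the other liver mice lay at or below -1.13. On this array the *Xist* spot, of a gene expressed from the inactive X chromosome, was at 10.4 (log2 Cy3) beside 12.8 for the Y-linked *Eif2s3y*, and on HL replicate 2 they were at 13.23 and 3.58. *Elavl4*, an RNA-binding protein of neurons, was at 3.10 ± 0.21 in colon (SD, n = 24; 2.70 to 3.49) and at -0.65 ± 0.17 in liver (SD, n = 23), a difference of at least 12.9-fold. *Uchl1*, the neuronal ubiquitin hydrolase also known as PGP9.5, was at 1.87 ± 0.18 in colon (SD, n = 24; 1.53 to 2.20) and at -0.81 ± 0.15 in liver (SD, n = 23), a ratio 6.40-fold higher in colon. For these genes no colon mouse overlapped with a liver mouse. The bounds for *Vip* and *Elavl4* were taken in the Cy3 channel, and on the ratio scale their folds were 18.6 and 13.4. *Elavl4* was well above background on 0 of 24 liver arrays and *Uchl1* on 2. Liver and colon were hybridised on different slides, so tissue and slide cannot be told apart.

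The plot of colon and liver values shows the other genes closer together. *Snap25* was at 0.60 ± 0.22 in colon (SD, n = 24) and at 0.05 ± 0.11 in liver (SD, n = 23), at least 1.39-fold, with overlapping ranges. *Slc18a3*, the vesicular acetylcholine transporter, was at 0.33 ± 0.15 in colon (SD, n = 24) and 0.01 ± 0.16 in liver (SD, n = 23), a ratio 1.25-fold higher in colon, with 1 of 24 liver arrays well above background. *Chat*, choline acetyltransferase, was the only one with a lower ratio in colon, at 0.06 ± 0.11 (SD, n = 24) against 0.38 ± 0.17 in liver (SD, n = 23), and this probe was well above background on 23 of 24 liver arrays. Its mean log2 Cy3 signal was 6.86 on colon and 6.97 on liver arrays, and its Cy5 reference signal 6.80 and 6.60. Part of the difference in ratio thus lay in the reference channel. The ranges of both cholinergic genes overlapped between the tissues.

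**Figure D1:**
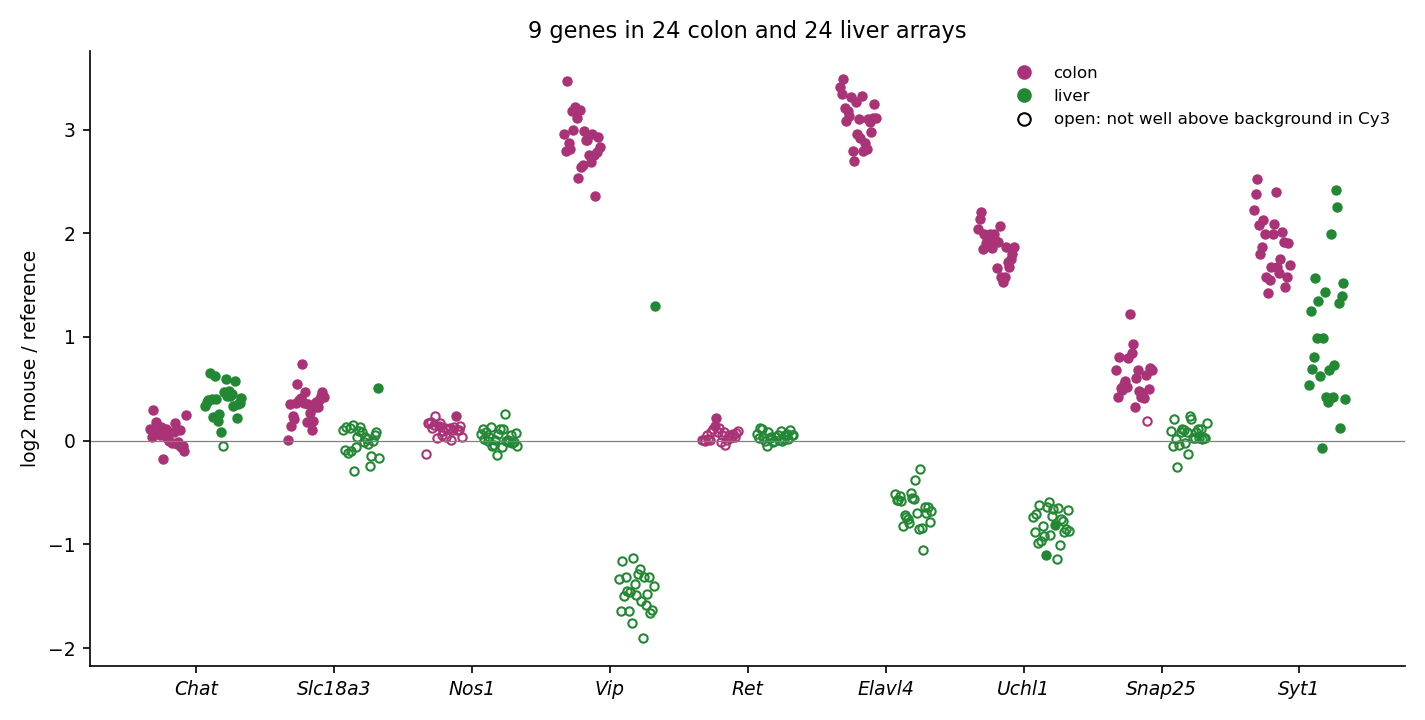
Log2 ratio of mouse over reference for 1 probe of each of the 9 genes on 24 colon and 24 liver arrays, 1 point per array, with open circles where the spot was not well above background in Cy3. *Vip*, *Elavl4* and *Uchl1* separate the tissues, 1 liver array (LL replicate 6) stands at 1.30 for *Vip*, and *Nos1* and *Ret* lie near 0 in both.

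*Syt1*, the calcium sensor of fast transmitter release, was measured in both tissues. Its brightest probe was well above background on 24 of 24 colon and 24 of 24 liver arrays, at 1.89 ± 0.30 in colon (SD, n = 24; 1.42 to 2.52) and 1.05 ± 0.63 in liver (SD, n = 23; 0.02 to 2.42). The spread in liver was thus larger than in colon, and the ranges overlapped. The second probe gave 1.40 ± 0.18 in colon (SD, n = 24) and 0.59 ± 0.62 in liver (SD, n = 23). Across the 24 colon mice the 3 measured probes had Pearson correlations of 0.65 to 0.83 with each other, whereas both unmeasured probes correlated negatively with them.

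Between diets, the comparison HH *vs.* LH addressed the effect of the dam's diet in pups weaned to the sufficient diet. The estimate was above 0 for the brightest probe of all 7 measured genes, and it was largest for *Vip* and *Syt1*, at 0.30 each. *Vip* in HH colon was 2.36 at the lowest, 2.78 at the median and 3.11 at the highest, and in LH colon 2.90, 2.98 and 3.47. The groups overlapped, and the LH mouse exceeded the HH mouse of its slide on 6 of 6 slides. The estimate was 0.30 (SE 0.11), a fold of 1.23.

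*Elavl4* ran from 2.79 through a median of 3.03 to 3.41 in HH and from 3.10 through 3.26 to 3.49 in LH. LH was higher within 6 of 6 slides although the groups overlapped, and the estimate was 0.22 (SE 0.08). The second *Elavl4* probe gave 0.12 (SE 0.09) with LH higher on 4 of 6 slides. *Uchl1* ran from 1.53 through 1.83 to 2.04 in HH and from 1.80 through 1.97 to 2.20 in LH, again overlapping, with an estimate of 0.17 (SE 0.07) and LH higher on 5 of 6 slides.

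**Figure D2:**
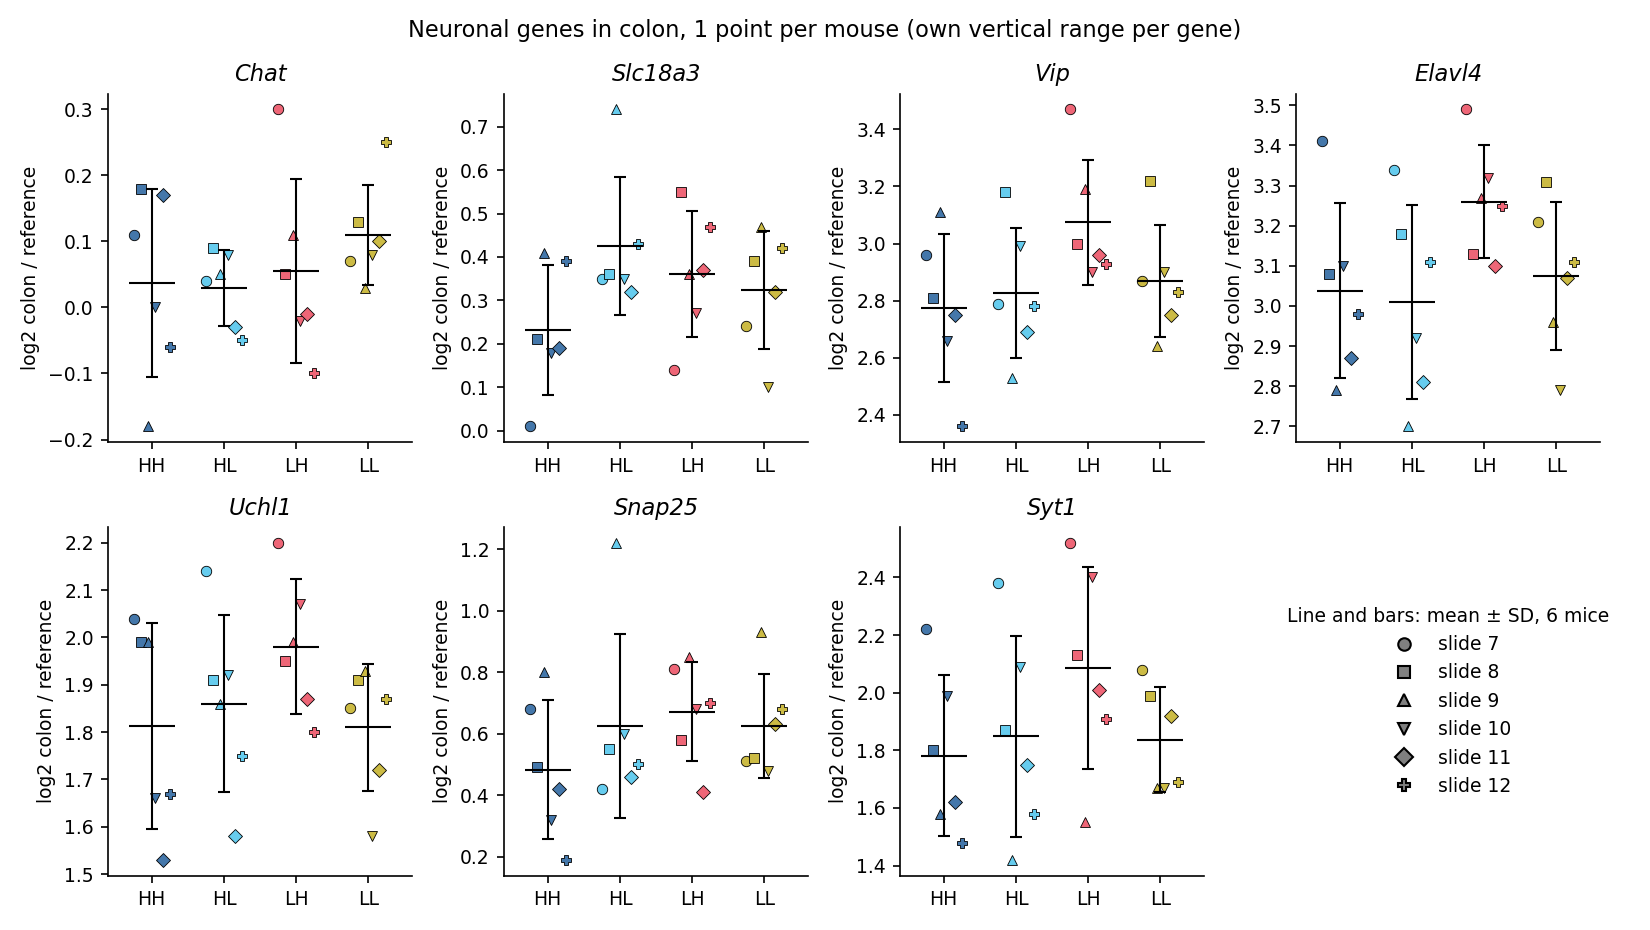
Log2 ratio of colon over reference for the 7 measured genes by group, 1 point per mouse with a shape for each slide, and the mean ± SD of 6 mice; the vertical range differs between genes. The groups overlap for every gene, and LH has the highest mean for *Vip*, *Elavl4*, *Uchl1*, *Snap25* and *Syt1*.

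Among the genes of vesicle release, *Syt1* ran from 1.48 through 1.71 to 2.22 in HH and from 1.55 through 2.07 to 2.52 in LH. LH was higher on 5 of 6 slides, and the estimate was 0.30 (SE 0.08). The other 2 measured probes gave 0.21 (SE 0.08; 6 of 6 slides) and 0.07 (SE 0.07; 5 of 6 slides), so the size depended on the probe. *Snap25*, the SNARE protein of the nerve terminal membrane, ran from 0.19 through 0.46 to 0.80 in HH and from 0.41 through 0.69 to 0.85 in LH, with an estimate of 0.19 (SE 0.08). LH was higher on 5 of 6 slides.

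The cholinergic genes were read in the same comparison, and their estimates were not tested against each other. *Slc18a3* ran from 0.01 through 0.20 to 0.41 in HH and from 0.14 through 0.37 to 0.55 in LH, and the estimate was 0.13 (SE 0.06) with LH higher on 5 of 6 slides. *Chat* ran from -0.18 through 0.05 to 0.18 in HH and from -0.10 through 0.02 to 0.30 in LH. Its estimate was 0.02 (SE 0.07) and LH was higher on 2 of 6 slides. The second *Chat* probe, which was unmeasured, gave 0.15 (SE 0.10). The Pearson correlation of the *Chat* probes over the colon mice was -0.04. The unmeasured *Nos1* and *Ret* gave 0.08 (SE 0.06) and 0.02 (SE 0.04).

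At a fold change over 1.5 and an FDR under 0.05, 0 of the 15 probes were called, as were 0 of all 41174 probes (0%), by limma with Benjamini-Hochberg adjustment. On 6 colon arrays (HH replicates 1 and 5, HL replicate 5 and LL replicates 1, 3 and 5) the *Xist* spot was above 9 (log2 Cy3). No LH array was among them. The Y-linked *Eif2s3y* spot was at 3.1 on HL replicate 5, 3.26 on LL replicate 3 and 7.46 on LL replicate 1. It was at 11.85 and 11.46 on HH replicates 1 and 5 and at 12.39 on LL replicate 5. The sex of these mice was not tested. Without the 6 arrays the estimates were 0.32 for *Vip*, 0.24 for *Elavl4*, 0.27 for *Syt1*, 0.12 for *Uchl1*, 0.29 for *Snap25* and 0.10 for *Slc18a3*. The *Snap25* estimate was 0.07 with the Cy3 channel alone and 0.09 with no background correction.

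**Figure D3:**
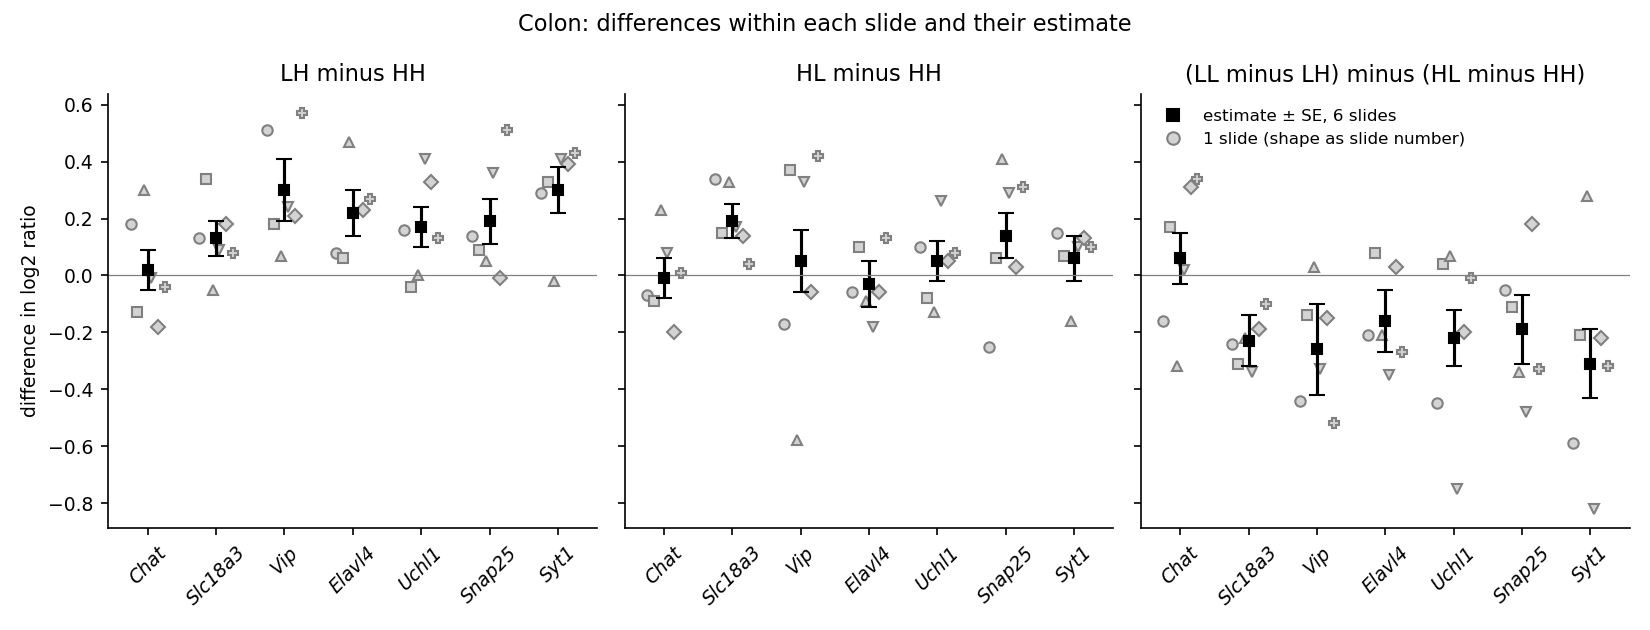
Differences in log2 ratio within each of the 6 colon slides (grey, 1 shape per slide) and the limma estimate ± SE (black) for HH *vs.* LH, HH *vs.* HL and the interaction of the diets. Estimates lie above 0 in LH minus HH for the 7 genes, are largest for *Slc18a3* and *Snap25* in HL minus HH, and lie below 0 in the interaction except for *Chat*.

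The comparison HH *vs.* HL addressed the deficient diet after weaning alone. *Slc18a3* was higher in the HL mouse on 6 of 6 slides, with values from 0.32 through 0.36 to 0.74 in HL and an estimate of 0.19 (SE 0.06). *Snap25* ran from 0.42 through 0.52 to 1.22 in HL, with an estimate of 0.14 (SE 0.08). The highest HL value of both genes was that of replicate 3, and without this mouse the estimates were 0.15 for *Slc18a3* and 0.08 for *Snap25*. For *Vip* the estimate was 0.05 (SE 0.11), for *Elavl4* -0.03 (SE 0.08), for *Syt1* 0.06 (SE 0.08), for *Uchl1* 0.05 (SE 0.07) and for *Chat* -0.01 (SE 0.07). None of the 15 probes was called (0% of all probes). Without the repair of local background, which set a background brighter than its spot to the array's median, the estimates were 0.30 for *Vip*, 0.33 for *Elavl4*, 0.39 for *Syt1* and 0.29 for *Uchl1*, and with processed signals they were 0.40 for *Slc18a3* and 0.43 for *Snap25*. HH *vs.* LH and HH *vs.* HL share the HH mice.

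Averaged over the offspring diets, the mean of LH and LL exceeded that of HH and HL by 0.17 (SE 0.08) for *Vip*, 0.14 (SE 0.05) for *Elavl4* and 0.15 (SE 0.06) for *Syt1*, on the brightest probes. The other measured probes gave less, 0.05 (SE 0.06) for *Elavl4* and 0.10 (SE 0.06) and 0.01 (SE 0.05) for *Syt1*. The other measured genes differed by 0.10 or less, *Slc18a3* by 0.01 (SE 0.04). No probe was called for the dam's diet (0% of all probes). For the diet after weaning, HL and LL together differed from HH and LH together by between -0.11 (*Elavl4*, SE 0.05) and 0.08 (*Slc18a3*, SE 0.04) for the brightest probes, with 0 called (0% of all probes).

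In LL mice, which had the deficient diet throughout, the values overlapped those of every other group. *Vip* ran from 2.64 through 2.85 to 3.22 and *Elavl4* from 2.79 through 3.09 to 3.31. The interaction, the LL minus LH difference less the HL minus HH difference, was -0.31 (SE 0.12) for *Syt1*, -0.26 (SE 0.16) for *Vip*, -0.23 (SE 0.09) for *Slc18a3*, -0.22 (SE 0.10) for *Uchl1*, -0.19 (SE 0.12) for *Snap25* and -0.16 (SE 0.11) for *Elavl4*. For *Slc18a3* it was below 0 on 6 of 6 slides, while *Chat* gave 0.06 (SE 0.09). These are the brightest probes, and the other measured ones gave -0.23 (SE 0.11) and -0.12 (SE 0.10) for *Syt1* and -0.13 (SE 0.13) for *Elavl4*. No probe was called (0% of all probes). Without the 6 arrays with *Xist* the interaction was -0.13 for *Vip*, -0.34 for *Syt1* and -0.30 for *Snap25*. Without the repair it was -0.50 for *Vip*, -0.51 for *Elavl4*, -0.64 for *Syt1* and -0.46 for *Uchl1*, and with processed signals -0.63 for *Snap25*.

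In liver, *Syt1* had the widest differences between groups. Its brightest probe ran from 0.02 through 0.54 to 1.57 in HH, from 0.68 through 1.12 to 2.42 in HL, from 0.69 through 1.47 to 2.25 in LH and from 0.40 through 0.52 to 1.33 in LL. The groups overlapped. LH minus HH was 0.89 (SE 0.30), HL minus HH 0.64 (SE 0.30) and the interaction -1.51 (SE 0.41), so the means of HL and LH lay above those of HH and LL. The second probe gave 0.79 (SE 0.30), 0.56 (SE 0.30) and -1.39 (SE 0.42). The third gave only 0.25 (SE 0.11), 0.08 (SE 0.11) and -0.30 (SE 0.15), so the size depended on the probe. These probes were well above background on 22 and 20 of 24 liver arrays. In the liver comparison of HH *vs.* LH, 0 of 41174 probes were called (0%), those of *Syt1* included. With slide as a block and both arrays of 1 HH mouse counted as 2 mice, 5 probes were called (0.0121%) in this comparison, none of them of these genes, and with the first of the 2 arrays alone 0 were. For the interaction, 0 probes were called without the block. With the block, 3 were called with both arrays (0.00729%) and 4 with the first array alone (0.00972%), none of them of these genes. HL replicate 2 and LL replicate 6 were the liver mice with *Xist* above 9. Without them the differences of the brightest *Syt1* probe were 0.89 (SE 0.30), 0.70 (SE 0.32) and -1.52 (SE 0.44), in the same order.

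Several of these genes also varied from slide to slide. The slide mean of *Syt1* ran from 1.55 on slide 9 to 2.30 on slide 7, that of *Elavl4* from 2.93 on slide 9 to 3.36 on slide 7, and that of *Snap25* from 0.48 on slide 11 to 0.95 on slide 9. The slides were scanned separately, so slide and scan cannot be told apart. Across the 24 mice, *Elavl4* and *Syt1* had a Pearson correlation of 0.73 and *Elavl4* and *Uchl1* of 0.63, which became 0.47 and 0.44 once slide and group means were taken out. *Syt1* and *Uchl1* had 0.58 and then 0.74. With *Elavl4*, *Snap25* had -0.08 and then -0.03, and *Slc18a3* had -0.33 and then -0.31. These correlations are descriptions, and the mice share slides and the 1 reference RNA.

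The genes whose colon ratio followed each member most closely over the 24 mice were taken from 21955 named candidates. *Kif5a*, a kinesin motor of axonal transport, followed *Elavl4* (r = 0.863), *Zcchc12* followed *Uchl1* (r = 0.914), and *Syp*, the vesicle protein synaptophysin, was the third for *Slc18a3* (r = 0.841) after *Rap1gap2* (0.849) and *Septin5* (0.847). For *Syt1* the first was *Pcdhac2* (0.927) and the second *Acta2*, the actin of smooth muscle (0.926). For *Vip* the values were lower, 0.75 for *Ptpn5* and for *Frmd4a*, and for *Chat* no gene exceeded 0.647. With slide and group means taken out the first were *Cinp* (0.856) for *Elavl4*, with *Kif5a* (0.839) the third, *Gprasp2* (0.851) for *Syt1*, *Atcay* (0.866) for *Vip* and *Senp6* (0.912) for *Chat*. The first 3 became *Map2k3* (0.916), *Ripk4* (0.912) and *Sdc1* (0.885) for *Slc18a3*, and *Nptn* (0.860), *Omg* (0.825) and *Calb2* (0.824) for *Uchl1*. The unmeasured *Nos1* probe reached 0.830 and then 0.932 with *Ptpdc1*, so values this high also arose for a probe near background.

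A list of 66 other genes of enteric neurons and synaptic vesicles was set beside the 9 genes. Of these, 64 were on the array with 95 probes, and 60 were measured in colon. For HH *vs.* LH, 0 of the 95 probes were called, 20 were higher and 0 lower at an unadjusted p under 0.05 (21.1%, where 4.93% of all probes were higher and 8.08% passed in either direction), and the median difference was 0.087 against 0.004 over all probes. Among its measured probes 84.9% had a positive difference, compared with 53.9% of all measured probes. The lowest p-values were those of *Map2*, a microtubule protein of dendrites, with -0.61 ± 0.32 in HH and -0.35 ± 0.30 in LH (SD, n = 6 each), of *Chrna3*, the ganglionic nicotinic receptor subunit, with 0.56 ± 0.20 and 0.93 ± 0.19, and of *Rab3a*, a vesicle GTPase, with -0.22 ± 0.19 and 0.05 ± 0.26. Their differences were 0.26 (SE 0.05), 0.37 (SE 0.08) and 0.28 (SE 0.07), and none passed the FDR (limma, adjusted p = 0.295, 0.295 and 0.334).

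Further genes of the list with an unadjusted p under 0.05, picked for their roles after their values were seen, included *Slc5a7*, the choline transporter (0.23, SE 0.08), *Ache*, acetylcholinesterase (0.15, SE 0.06), *Penk*, proenkephalin (0.25, SE 0.10), *Vamp2*, the vesicle SNARE (0.25, SE 0.09), and *Gap43*, a growth cone protein (0.18, SE 0.08). Each of these 5 had an adjusted p of at least 0.481 (limma). The list was written with earlier results of these data known, and its count was 44 without the repair of local background (6.36% of all probes higher), 7 without the slide term (1.89%), 11 with median centring (3.17%) and 12 without the arrays with *Xist* (4.4%). It was 13 without LH replicate 4 (4.75%).

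**Figure D4:**
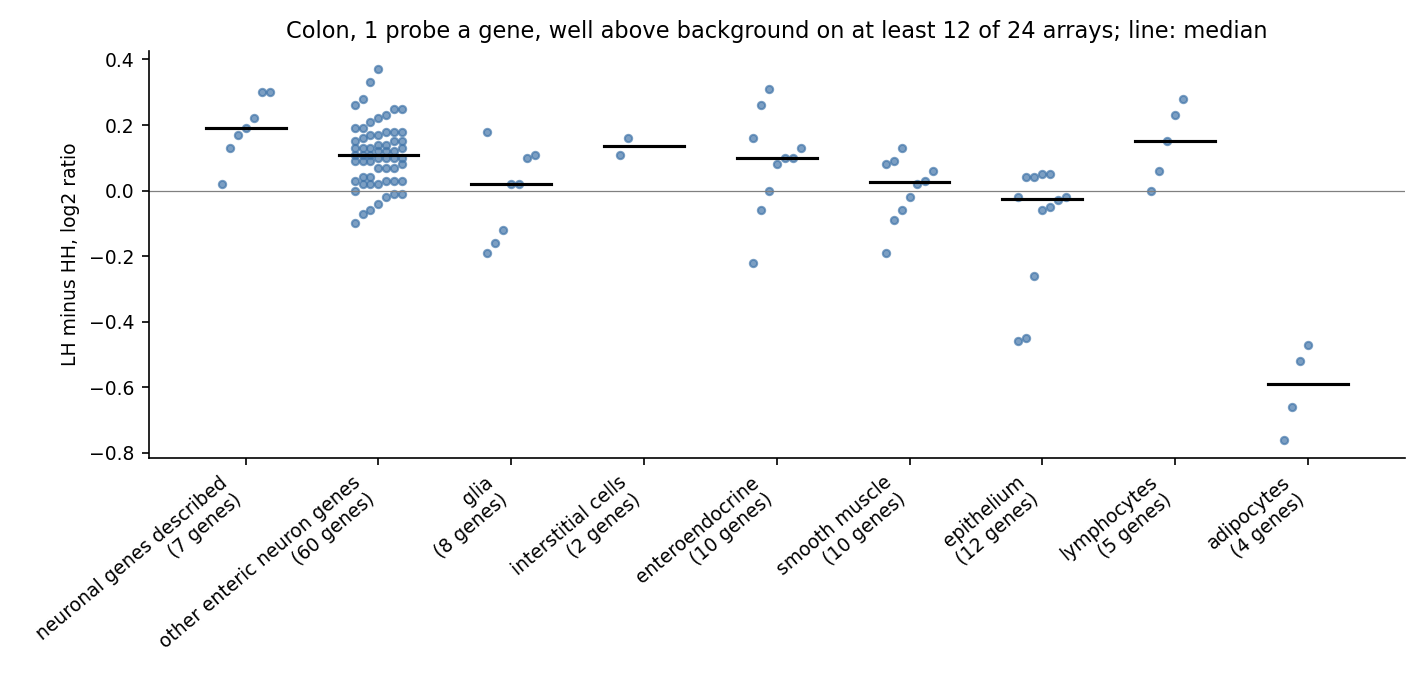
LH minus HH in colon, as a difference in log2 ratio, for 1 probe of each gene measured on at least 12 of 24 arrays, by gene list, with the median as a line. The 7 measured neuronal genes have a median of 0.19 and the 60 other enteric neuron genes of 0.11, glia of 0.02, smooth muscle of 0.03, epithelium of -0.03, adipocytes of -0.59, enteroendocrine cells of 0.10, interstitial cells of 0.14 and lymphocytes of 0.15.

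For HH *vs.* HL, 6 of the 95 list probes were higher and 0 lower at an unadjusted p under 0.05, with a median of 0.039 against 0.001 over all probes, of which 1.45% were higher at that level and 3.29% passed in either direction. The lowest p-values were those of *Sv2b* (0.25, SE 0.08), *Syp* (0.19, SE 0.07) and *Chrna3* (0.21, SE 0.08), each with an adjusted p of 1 (limma). For the interaction, 12 were lower and 0 higher, where 2.77% of all probes were lower and 4.8% passed in either direction, with a median of -0.099 against -0.004. *Chrna3* gave -0.46 (SE 0.12), *Slc5a7* -0.38 (SE 0.12) and *Map2* -0.31 (SE 0.08), each with an adjusted p of 0.99 (limma). This count was 23 without the repair of local background (3.44% of all probes lower), 4 without the slide term (1.02%) and 7 with median centring (1.55%), and it was 5 without LL replicate 4 (2.47%) and 6 without HL replicate 4 (2.56%). For the dam's diet 7 of the list probes were higher and 1 lower (5.42% of all probes in either direction), and *Ache* (0.13, SE 0.04) and *Mapt*, tau (0.19, SE 0.07), were among those with the lowest p-values (limma, adjusted p = 0.906). For the diet after weaning 0 were higher and 1 lower (5.44% of all probes in either direction), and the lowest p-values were those of *Mapt* (-0.17, SE 0.07), *Penk* (-0.14, SE 0.07) and *Rims1*, an active zone protein (-0.07, SE 0.04; limma, adjusted p = 0.881).

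Markers of other cells of the colon wall were read for HH *vs.* LH in the same fit. Of 15 probes of enteric glia, such as *Sox10*, 0 had an unadjusted p under 0.05 and the median was 0.007, and the mean ratio of the list ran from 0.75 to 0.98 in HH and from 0.68 to 0.94 in LH. For smooth muscle 1 of 15 was lower, with a median of 0.02 and mean ratios of 1.51 to 1.79 in HH and 1.46 to 1.71 in LH. For enteroendocrine cells, which share secretory genes with neurons, 3 of 12 were higher (25%, beside 21.1% of the neuron list and 4.93% of all probes), with a median of 0.113 and mean ratios of 0.98 to 1.22 in HH and 1.09 to 1.22 in LH. Of the epithelial probes 2 of 16 were lower, with a median of -0.004. Of all 41174 probes, 1300 were lower at an unadjusted p under 0.05. Both genes of the interstitial cells of Cajal that were matched, *Ano1* and *Etv1*, were higher, with a median of 0.136, 1 of them at an unadjusted p under 0.05.

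Adipocyte markers varied most from mouse to mouse, with a mean ratio of 1.25 to 2.25 in HH and -1.04 to 2.24 in LH. Their 6 probes had a median difference of -0.495, with 1 lower at an unadjusted p under 0.05, as were 1300 of all 41174 probes. Lymphocyte markers had 0 of 7 probes at that level, 6 of 7 above 0, a median of 0.124 and mean ratios of -0.14 to 0.12 in HH and 0.00 to 0.30 in LH. Over the 24 mice, with slide and group means left in, the mean ratio of the neuron list had Pearson correlations of 0.10 (*Snap25*) to 0.46 (*Elavl4*) with the 7 measured genes. That of the smooth muscle list had 0.69 with *Syt1*, 0.52 with *Elavl4* and -0.20 with *Snap25*. The 2 interstitial cell genes had 0.73 with *Snap25* and 0.67 with *Uchl1*, the enteroendocrine list 0.65 with *Elavl4*, and the epithelial list -0.57 with *Vip*. The part of these cells in the differences of the neuronal genes was not tested.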

How the data were processed

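RNA of 24 colons and 24 livers was measured on 48 Agilent 2-colour arrays with 4 arrays per slide. The authors deposited un-normalized median intensities of the spots and of the background around them, in both channels, and Feature Extraction's processed intensity. The authors also deposited log2 ratios, with the reference as numerator. Per the labels, the submitters used limma and R 3.0.2. All mice were labelled with Cy3, without a dye swap.

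Probes were named from their accession through RefSeq, which matched 27050 of 41174 probes. A local background brighter than its spot was set to the median of that array and channel. Intensities were then corrected by normexp (offset 50), normalized by global loess with control spots at weight 0, turned to log2 mouse over reference and averaged over the spots of a probe. Flagged spots were left out. The probe with the highest mean Cy3 signal in colon stood for a gene, and measured means well above background on at least 12 of 24 colon arrays. Where a gene was below background in liver, a fold is a lower bound taken against the lowest signal among probes well above background.

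Colon arrays were fitted in limma 3.58.1 (R 4.3.3, lmFit and eBayes) as 4 groups with slide as a block, and 23 liver mice without it, after averaging the 2 arrays of 1 mouse. Benjamini-Hochberg adjustment ran over all probes. On simulated data for HH *vs.* LH in colon, 200 of 200 changed probes (0.8 to 1.2 on the log2 scale, 40579 probes) were called, and 0 unchanged ones. The largest estimates of the described genes in this comparison were smaller, at 0.30 for *Vip* and *Syt1*, a fold of 1.23. Estimates of that size lie under the fold change required for a call and could not be called at any precision. The simulation therefore does not show how well such differences would be detected. The precision is limited by the number of arrays, of which 66.8 to 73.7% of spots in colon were well above background.

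The 9 genes, the lists and the rule for named genes (each gene and probe, the called or the 3 lowest-p genes of the neuron list per comparison, and the 3 most correlated genes) were chosen with earlier results of these data known. Some genes that this rule takes are not reported here. The alternatives were no repair or no background correction, processed signals, the deposited ratios, median centring, Cy3 alone, no slide term, array weights, fits of 2 groups, omission of arrays with *Xist* (in liver chosen after seeing the data), and each mouse left out. The labels name no litters, so p-values measure only the spread between these mice.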

Additional observations from a re-analysis of the deposited data

Results flagged for a closer look

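In 36 groups of 5 or 6 mice, the highest or lowest value was set against the others by its gap relative to the range, and 3 groups had a mouse that stood apart. Chance gives about 1 in 20. *Slc18a3* in colon of HL replicate 3 was at 0.74, with the other HL mice at 0.32 to 0.43. *Snap25* in colon of the same mouse was at 1.22, with the others at 0.42 to 0.60. *Chat* in liver of LL replicate 3 was at -0.05, with the others at 0.40 to 0.65. On that array alone among the liver arrays, the *Chat* spot was not well above background.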

How the results depend on the processing

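No called count of the 9 genes or of the neuron list differed from 0 under any alternative or with any mouse left out. Over all probes, 1 probe was called for HH *vs.* LH with array weights and in the fit of 2 groups, 1 for HH *vs.* HL with processed signals, and 0 to 1 with 1 mouse left out for HH *vs.* LH, for HH *vs.* HL and for the dam's diet. For the neuron list at an unadjusted p under 0.05, chosen after seeing the data, the count higher in HH *vs.* LH was 20, and 44 without the repair of local background, 11 with median centring, 7 without the slide term, 12 without the arrays with *Xist*, and 13 to 27 with 1 mouse left out. The count lower in the interaction was 12, and 23, 7 and 4 under the first 3 of these and 5 to 14 with 1 mouse left out. The cause was not tested. Of 1204 differences of the 7 measured genes under these settings, 31 changed sign, 5 of them in HH *vs.* LH, all of *Chat*. Without the repair the LH minus HH difference was 0.54 for *Vip*, 0.57 for *Elavl4*, 0.63 for *Syt1* and 0.41 for *Uchl1*, and with processed signals it was 0.49 for *Snap25*. No paired analysis was possible because the labels give no replicate numbers, and numbers here follow the order of deposit. The mice of 1 slide were compared with each other through the slide block of the colon fit. Signal over background leaves *Nos1* and *Ret* without a usable level.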
